A study of Mus musculus with 7 samples.

Results

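The nuclear-encoded subunits of the mitochondrial respiratory chain and ATP synthase were examined in RNA-seq libraries of the mouse pre-implantation epiblast. Members were taken by symbol. They were the protein-coding genes named Nduf with a letter a, b, c, s or v and a number (complex I), Sdha to Sdhd (complex II), Uqcr genes and Cyc1 (complex III), Cox4 to Cox8 genes (complex IV) and Atp5 genes (complex V), without the Ndufaf assembly factors. The rule found 85 genes of the 52636 in the count table: 37 in complex I, 4 in complex II, 9 in complex III, 18 in complex IV and 17 in complex V. Of these, 80 passed the filter on low counts (36, 4, 9, 14 and 17). Those that did not were Ndufa4l2, Cox4i2, Cox6a2, Cox8b and Cox8c. Some symbols needed care: Ndufa4 is matched to complex I by name but is known as a protein bound to complex IV, Cox7a2l as a factor of respiratory supercomplexes, and Atp5s as a protein outside the core ATP synthase.

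The study asked how transcription in pluripotent cells responds when ERK is switched on by an inducible cRAF construct. All embryos had the genotype Sox2Cre;CRAFR26, in which the Sox2 promoter drives Cre, and came from 2 biological clones of the construct, clone 4 and clone 8, in a mouse line founded from targeted embryonic stem cells. They were flushed at embryonic day 2.5 and kept for 24 h in KSOM medium that contained the FGF receptor inhibitor PD173074 at 250 nM, so that the controls carried the construct and the inhibitor too. The tamoxifen group (4 libraries: clone4_1, clone4_2, clone8_1, clone8_2) received 250 nM 4-hydroxytamoxifen for 4 h, and the vehicle group (3 libraries: clone4_1, clone4_2, clone8_1) received ethanol for 4 h. Another vehicle sample was discarded by the submitters at quality control, which left clone 8 with 1 vehicle library. Each library came from 2 ng of RNA of a pool of 10 inner cell masses, freed of trophectoderm by immunosurgery and labelled epiblast of embryonic day 3.5. The labels do not say whether pools came from separate litters, so p-values measure the spread between these pools.

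As background, complexes I and II pass electrons from NADH and succinate to ubiquinone, complex III passes them on to cytochrome c, and complex IV to oxygen. Complexes I, III and IV pump protons, and complex V, the ATP synthase, uses the gradient to make ATP. A few core subunits of complexes I, III, IV and V are encoded in mitochondrial DNA, whereas the genes described here are nuclear and their proteins are imported. Many nuclear subunits are small proteins with short transcripts. Nuclear respiratory factor 1 (NRF1) and the ETS-type factor GABP are known regulators of such genes.

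Total counts ran from 22981498 to 42294719 per library, and 16248 genes were tested. Vehicle clone8_1 stood apart from the other 6 libraries by its low values for short transcripts, and fold changes between conditions that rest on it are given with and without it. Naive epiblast markers were present in all libraries (9 of 10 passed the filter, none at 0 in every library), and summed to 1665 to 2044 CPM in vehicle and 1708 to 2199 CPM in tamoxifen libraries (CPM are counts scaled to the library total and edgeR's TMM factors). Primitive endoderm markers (9 of 10 passed, none at 0 in every library) summed to 845 to 1148 CPM and 884 to 1031 CPM. Trophectoderm markers (10 of 10 passed, none at 0 in every library) summed to 8530 to 11228 CPM in vehicle and 6546 to 9534 CPM in tamoxifen libraries, so transcripts of these genes were still counted after immunosurgery. All 10 trophectoderm markers had a log2 fold change below 0 (median -0.33, -0.39 without vehicle clone8_1). Of the 9 primitive endoderm markers 6 were above 0 (median 0.49, 0.62 without it), and of the 9 naive epiblast markers 7 (median 0.37, 0.14 without it). None of the 3 lists had a gene called. At an unadjusted p under 0.05 in edgeR's test, 3 of 10 trophectoderm markers were lower (background 3.28%) and 0 higher. By the same measure 2 of 9 primitive endoderm and 1 of 9 naive epiblast markers were higher (background 2.69%) and 0 lower. Without overlap between groups, 2 trophectoderm markers were lower (background 4.74%) and 2 primitive endoderm markers higher (background 3.71%). The part of these other cells in the values below was not tested. In bulk libraries fewer cells of a type and less RNA per cell cannot be told apart.

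Levels were compared between genes per length, as CPM per kb of typical transcript (the median length of a gene's basic protein-coding transcripts), averaged over the 6 libraries without vehicle clone8_1. Among the 7 core subunits of complex I, which carry its flavin and iron-sulfur clusters, levels ran from 51.9 CPM per kb for Ndufs1 to 345 for Ndufs7. The 28 accessory subunits ran from 7.89 for Ndufb2 to 516 for Ndufa6, with a median of 238. The place of Ndufb2 depends on the length taken for it, 2413 nt, since a coding transcript of 455 nt is also annotated. Ndufa4 was at 733 ± 78.0 CPM per kb (SD, n = 6), above every other gene placed in complex I. The 4 subunits of complex II, the succinate dehydrogenase, were ordered Sdhb, the iron-sulfur subunit (271 ± 32.2), Sdhd, a membrane anchor (144 ± 14.6), Sdha, the flavoprotein (104 ± 12.0), and Sdhc, the other anchor (71.5 ± 8.11 CPM per kb, SD, n = 6). By these lengths, neighbours in that order were further apart than the SD of either. The place of Sdhc depends on the length taken for it, 1993 nt, since a coding transcript of 815 nt is also annotated.

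The highest level per length of all members was that of Uqcr10, a small subunit of complex III, at 1496 ± 291 CPM per kb (SD, n = 6). Its value in CPM was 704, 454 and 105 in vehicle clone4_1, clone4_2 and clone8_1, and 638, 616, 842 and 641 in tamoxifen clone4_1, clone4_2, clone8_1 and clone8_2. The vehicle clone8_1 value lay below all others, and the remaining vehicle values lay inside or below the tamoxifen range. Uqcrb, another small subunit, was second within complex III at 742 ± 61.2 CPM per kb, and the lowest of complex III was Uqcrc2, a core protein, at 172 ± 18.0 (SD, n = 6). The catalytic subunits Cyc1 (cytochrome c1) and Uqcrfs1 (the Rieske protein) were at 360 and 262 CPM per kb.

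In complex IV the highest was Cox6a1, at 1237 ± 170 CPM per kb (SD, n = 6), followed by Cox8a at 996 ± 191, which differed from it by less than the sum of their SDs. In complex V the catalytic beta subunit Atp5b was highest at 1017 ± 96.4 CPM per kb, ahead of Atp5g3, which encodes the c subunit of the membrane rotor, at 912 ± 116 (SD, n = 6). The lowest was Atp5l at 14.0 ± 1.75 CPM per kb. Atp5l has 9 near-identical copies elsewhere in the genome, 8 of them pseudogenes, and how the counting treated reads shared with copies is not given in the sources used here, so its level is uncertain. In all, 13 of the 80 members had such a copy (at least 95% identity over at least 50% of the transcript), and 27 overlapped a gene on the other strand.

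**Figure D1:**
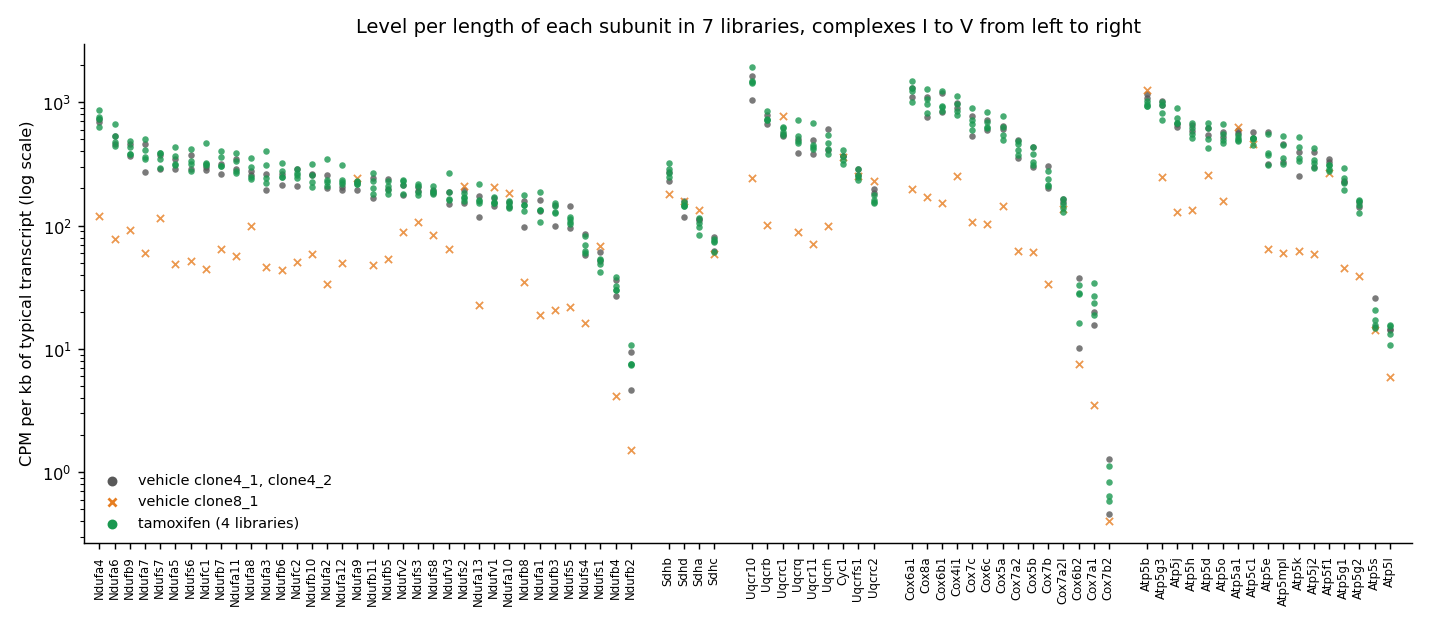
Level of each of the 80 members that passed the filter, in CPM per kb of typical transcript on a log axis, with 1 point per library and complexes I to V from left to right. Vehicle clone8_1 (orange crosses) lies below the other 6 libraries for most members but near, within or above them for complex II and for long members such as Uqcrc1, Cyc1, Atp5a1 and Atp5b.

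For complex IV subunits with isoforms from separate genes, the form known from most tissues had the higher level per length in each pair described here. Cox4i1 stood at 933 CPM per kb against 0 to 8 counts per library for Cox4i2, the lung and hypoxia form. Cox6a1 stood at 1237 CPM per kb against 0 to 12 counts for Cox6a2, the heart and muscle form. Cox8a stood at 996 CPM per kb, while the muscle form Cox8b had 0 counts in all 7 libraries, which allows up to 0.0710 to 0.129 CPM by counting error alone, and the testis form Cox8c had 0 to 8 counts. Cox6b1 stood at 991 CPM per kb against 25.5 for the testis form Cox6b2, Cox7a2 at 428 against 23.2 for the heart and muscle form Cox7a1, and Cox7b at 241 against 0.820 for Cox7b2. In complex V the c-ring genes were ordered Atp5g3 (912), Atp5g1 (235) and Atp5g2 (148 CPM per kb). The place of Atp5g1 depends on the length taken for it, 2675.5 nt, since a transcript of 596 nt is also annotated. Near-identical pseudogene copies were found for Atp5g1 (1) and Atp5g2 (2) but not for Atp5g3. As for Atp5l, how shared reads were counted is not given, so this order is uncertain. In complex I, Ndufa4 stood at 733 CPM per kb and Ndufa4l2, a hypoxia-induced relative, had 0 to 2 counts per library.

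Promoters are shown for 3 small subunits of complexes III and IV, as examples of windows that hold motifs known from respiratory genes. All 53 members with short transcripts, not these in particular, were lowest in vehicle clone8_1. The windows run from 250 bases before to 50 after the gene's start, in RefSeq's GRCm38.p6, and are written along the gene's strand with the motifs in capitals. Cox6a1 lies on chr5:115348909-115349208 (minus strand), Cox8a on chr19:7217567-7217866 (minus strand) and Uqcr11 on chr10:80406772-80407071 (minus strand).
Cox6a1: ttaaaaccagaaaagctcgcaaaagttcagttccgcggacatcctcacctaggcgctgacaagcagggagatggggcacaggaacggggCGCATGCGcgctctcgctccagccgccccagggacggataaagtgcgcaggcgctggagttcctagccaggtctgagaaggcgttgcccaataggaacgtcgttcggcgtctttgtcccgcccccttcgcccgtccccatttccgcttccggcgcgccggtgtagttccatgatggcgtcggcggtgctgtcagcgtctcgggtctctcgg
Cox8a: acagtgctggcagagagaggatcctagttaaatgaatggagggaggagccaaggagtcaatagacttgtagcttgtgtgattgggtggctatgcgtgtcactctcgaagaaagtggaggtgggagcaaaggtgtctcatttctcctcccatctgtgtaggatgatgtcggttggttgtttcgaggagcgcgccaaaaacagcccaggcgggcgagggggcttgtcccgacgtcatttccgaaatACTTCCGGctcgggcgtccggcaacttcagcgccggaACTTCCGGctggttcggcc
Uqcr11: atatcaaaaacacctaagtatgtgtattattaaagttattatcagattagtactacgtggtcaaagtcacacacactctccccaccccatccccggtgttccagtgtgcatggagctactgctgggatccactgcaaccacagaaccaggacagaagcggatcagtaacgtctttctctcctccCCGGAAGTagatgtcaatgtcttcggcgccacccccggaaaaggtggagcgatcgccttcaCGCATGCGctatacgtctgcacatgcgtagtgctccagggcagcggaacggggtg

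The motifs searched on both strands were the NRF1 core CGCATGCG, which reads the same on both strands, and the ETS core CCGGAAGT, whose reverse complement is ACTTCCGG. They do not overlap each other in these windows. By the motif's first base, Cox6a1 holds the NRF1 core 161 bases before the start, Cox8a holds the ETS core 6 bases before and 31 bases after it on the reverse strand, and Uqcr11 holds both, at 5 bases (NRF1) and 66 bases (ETS) before the start. Of the 80 members, 67 matched a RefSeq window by symbol. The NRF1 core was present in 9 of 67 (13.4%), against 559 of 27025 genes with a window (2.07%), and the ETS core in 5 of 67 (7.46%) against 1164 of 27025 (4.31%). By length, the NRF1 core was in 8 of 46 members under 1000 nt and 1 of 21 longer ones. Either motif was present for 13 of the 67 members (19.4%), against 1660 of 27025 genes with a window (6.14%). These are matches of letters in a window, not measured binding.

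Expression in each library was then set against the other libraries as a deviation, the log2 CPM minus the median of the 7 libraries for the same gene. In 6 libraries the members stayed close to their medians: the median deviation over the 80 was 0.14 and -0.12 in vehicle clone4_1 and clone4_2, and 0.051, -0.089, 0.33 and 0 in tamoxifen clone4_1, clone4_2, clone8_1 and clone8_2. In vehicle clone8_1 it was -2.10. There 59 of 80 members lay more than 1 log2 unit below their median, against 19.5% of all genes tested. In vehicle clone4_2 it was 1 of 80, the testis form Cox6b2 (background 6.24%), and in the other libraries 0 of 80, against 7.59% of all genes in vehicle clone4_1 and 5.32%, 4.73%, 10.7% and 4.17% in tamoxifen clone4_1, clone4_2, clone8_1 and clone8_2.

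The complexes differed within vehicle clone8_1. Complex IV lay lowest, with a median deviation of -2.49 and 12 of 14 members more than 1 log2 unit down. Complex I followed at -2.20 (30 of 36), complex III at -2.09 (5 of 9) and complex V at -1.90 (12 of 17). Complex II lay at -0.091, with 0 of 4; its lowest was Sdhb (-0.57) and its highest Sdha (0.27). In tamoxifen clone8_1 the same order appeared with the opposite sign for complexes IV (0.38), I (0.35), III (0.23) and V (0.22), and complex II lay at 0.0051. In the other 5 libraries the medians of the complexes ranged from -0.23 to 0.21. The complexes also differed in the length of their transcripts. Under 1000 nt were 12 of 14 members of complex IV and 25 of 36 of complex I. For complexes III, V and II it was 5 of 9, 11 of 17 and 0 of 4.

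**Figure D2:**
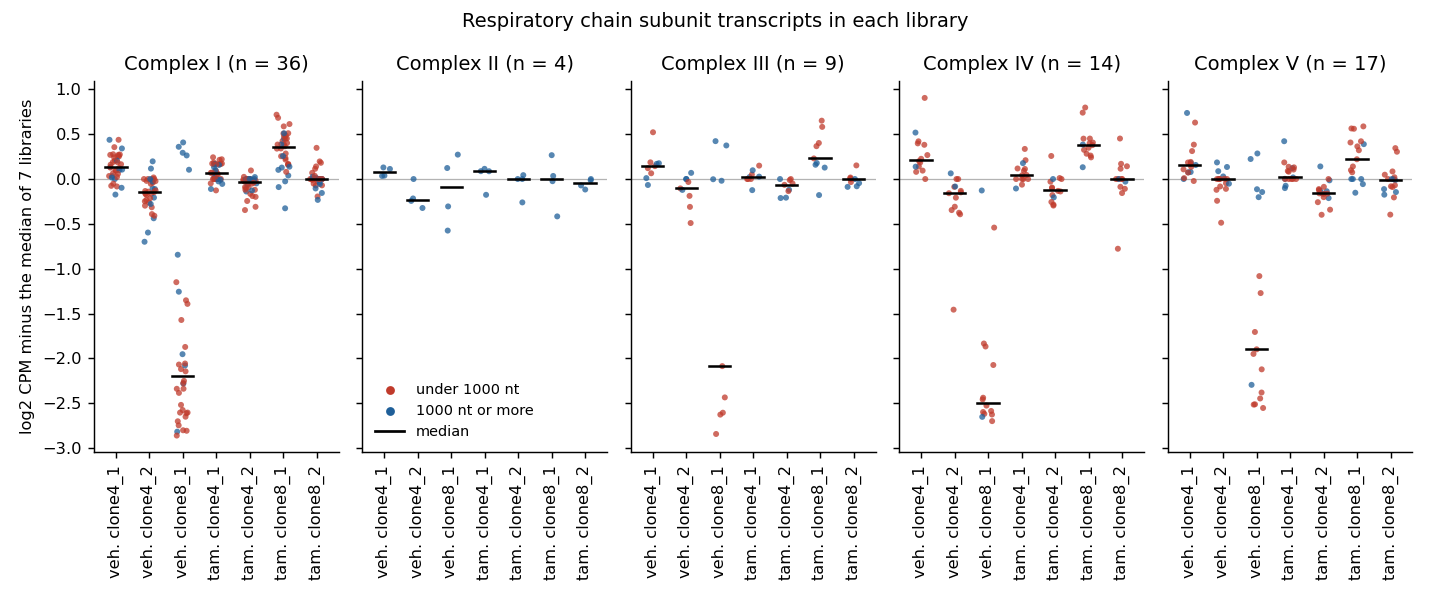
Deviation of each member (log2 CPM minus the median of the 7 libraries) in each library, by complex, with members under 1000 nt in red and longer ones in blue and black bars at the medians. In vehicle clone8_1 the red points of complexes I, III, IV and V lie mostly between -1 and -3, and the 4 genes of complex II, all longer than 1000 nt, lie near 0.

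Within complexes I, III, IV and V the low values lay mostly among subunits with short transcripts. In complex III the 5 small subunits (434 to 535 nt) had deviations of -2.84 to -2.09 in vehicle clone8_1, whereas Cyc1 and Uqcrfs1 were at -0.019 and -0.0024, and the core proteins Uqcrc1 and Uqcrc2 at 0.42 and 0.37. Uqcrb, the lowest of them, had 418, 358 and 53.6 CPM in vehicle clone4_1, clone4_2 and clone8_1, and 385, 382, 451 and 389 CPM in the tamoxifen libraries in the order above. Its vehicle clone8_1 value was far below the other 6, which lay close together. By contrast Uqcrc1 had 908, 874 and 1274 CPM in the vehicle libraries and 1017, 951, 1039 and 899 CPM in the tamoxifen libraries, with vehicle clone8_1 the highest.

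Complex I showed a similar but less sharp division. Its lowest member was the accessory subunit Ndufb4 (971 nt), at 35.0, 25.9 and 4.00 CPM in vehicle clone4_1, clone4_2 and clone8_1, and 29.4, 31.4, 37.2 and 28.9 CPM in the tamoxifen libraries, a deviation of -2.86. Its highest was Ndufv1, the NADH-binding flavoprotein (1528 nt), at 220.5, 256 and 313 CPM and at 232, 233, 259.5 and 236 CPM, a deviation of 0.41. The core subunits had a median length of 1312 nt and a median deviation of -0.84, and the accessory subunits 674.5 nt and -2.31. Length did not order the members fully, with Ndufa13 (1251 nt) at -2.82 and Ndufs7 (870.5 nt) at -1.57. In complex IV the lowest was Cox7a2 (-2.70) and the highest Cox7a2l (-0.13). In complex V the lowest was Atp5mpl, a small subunit of the membrane part (-2.55), and the highest Atp5b (0.28). Within the F1 head of the ATP synthase, the long alpha, beta and gamma genes Atp5a1, Atp5b and Atp5c1 were at 0.22, 0.28 and -0.14, and the shorter delta and epsilon genes Atp5d and Atp5e at -1.08 and -2.51.

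Over all complexes, 52 of the 53 members under 1000 nt lay more than 1 log2 unit below their median in vehicle clone8_1. The exception was Cox7b2 (-0.54), which had 8 to 28 counts per library. All 53 were lower there than in each of the other 6 libraries, by a median of 5.54-fold (range 1.81 to 7.60-fold) against the median of those libraries. Of the 27 members of 1000 nt or more, 7 lay more than 1 log2 unit down, 12 were lower than in all 6 other libraries and 11 were higher than in all 6. As a share of the library, the short members held 1.46%, 1.18% and 0.295% of counts in vehicle clone4_1, clone4_2 and clone8_1, and 1.38%, 1.20%, 1.68% and 1.32% in the tamoxifen libraries. The long members held 1.13%, 1.08% and 1.09%, then 1.08%, 1.03%, 1.11% and 1.04%. The exact Clopper-Pearson interval (95%) of the lowest share, 0.294% to 0.297%, covers counting error only, since these amplified reads carry no molecular identifiers.

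The gap between short and long members, their difference in median deviation, was -2.32 in vehicle clone8_1, 0.29 in tamoxifen clone8_1 and between -0.11 and 0.079 in the other 5 libraries. The 1111 short and 11888 long protein-coding genes outside the respiratory chain had gaps of -1.24 in vehicle clone8_1 and 0.21 in tamoxifen clone8_1, and of -0.027 to 0.080 elsewhere. Among those with a mean of at least 50 CPM (435 short, 3370 long), chosen after the data were seen to resemble the members in level, the gaps were -1.56 and 0.30. The excess over these genes was not tested. It also differed by length class. From 400 to 500 nt the members' median in vehicle clone8_1 was -2.55 and that of the other abundant genes -2.53, and from 500 to 600 nt they were -2.52 and -2.32. From 700 to 800 nt they were -2.38 and -1.48, and from 800 to 1000 nt -1.64 and -0.94. From 1000 to 1500 nt they were -0.57 and 0, and at 2000 nt or more 0.24 and 0.15. Each of these classes held 6 to 16 members, and the first held 17 of the other genes.

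**Figure D3:**
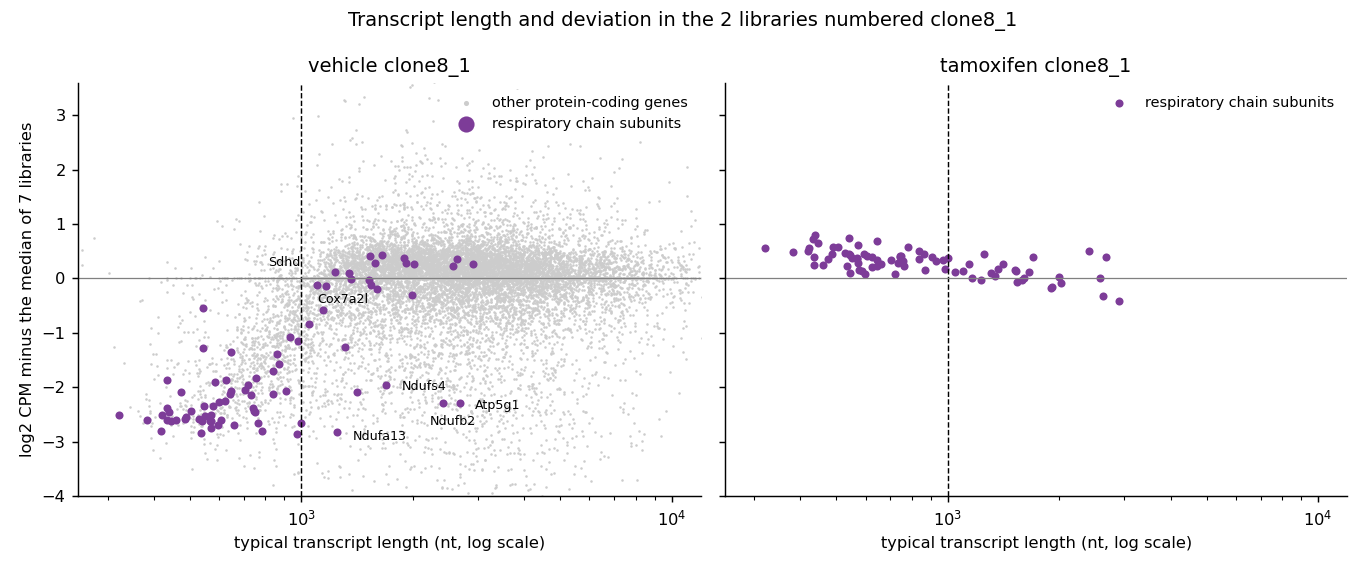
Deviation (log2 CPM minus the median of the 7 libraries) against typical transcript length on a log axis for the 80 members (purple) in vehicle clone8_1 and tamoxifen clone8_1, with the other protein-coding genes in grey on the left (those beyond the axes are not drawn). On the left the members under 1000 nt (dashed line) lie mostly between -1 and -3 and most longer ones near 0, and on the right the shorter members lie slightly above 0.

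The long members that lay low were Ndufa13, Ndufb2, Ndufb8, Ndufs4, Ndufv2, Cox7b and Atp5g1. Atp5g1 (typical length 2675.5 nt) had 600.2, 612 and 122 CPM in vehicle clone4_1, clone4_2 and clone8_1, and 653, 518, 786 and 595 CPM in the tamoxifen libraries. Vehicle clone8_1 was again far below the rest. The annotation lists a shorter coding transcript of 596 nt for Atp5g1 and of 455 nt for Ndufb2. It also lists such transcripts of 680 nt for Ndufb8 and 927 nt for Ndufv2. Ndufs4, Ndufa13 and Cox7b have none under 1000 nt, but that of Cox7b, at 1001 nt, lies just over the boundary. Which transcripts the counts came from cannot be read from gene counts. Coding length and transcript length go together in these genes and their parts were not told apart: by coding length, with a boundary at 600 nt, the gap between short and long members was -2.38. Several members had a long transcript and a coding sequence under 600 nt. Of these, Ndufa13 (432 nt of coding sequence), Cox7b (240 nt) and Ndufs4 (525 nt) lay at -2.82, -2.65 and -1.95 in vehicle clone8_1. Ndufb2 (315 nt), Ndufb8 (514.5 nt) and Atp5g1 (408 nt), with the shorter transcripts given above, lay at -2.28, -2.08 and -2.29 there. Sdhd (477 nt of coding sequence in a transcript of 1231 nt) had 194, 144 and 196 CPM in the vehicle libraries and 191, 180, 177 and 178 CPM in the tamoxifen libraries, with vehicle clone8_1 the highest of the 7. Cox7a2l (367.5 nt of coding sequence, 1102.5 nt of transcript) and Sdhc (456 nt and 1993 nt) were at -0.13 and -0.31. Sdhc also has an annotated coding transcript of 815 nt.

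Tamoxifen clone8_1 lay at the other end. Of the 53 short members 42 had their highest value of the 7 libraries there, as had 7 of the 27 long ones. The median deviation of the short members was 0.39 and that of the long ones 0.10. The largest was that of Cox7a1 (0.80), at 15.1 CPM against 6.82 to 11.9 CPM in the 5 libraries other than those numbered clone8_1. No member differed from its median by more than 1 log2 unit in that library.

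For the comparison of tamoxifen with vehicle, the quasi-likelihood test of edgeR (p-values adjusted by Benjamini-Hochberg over all 16248 genes) called 0 members and 0 genes (0% of those tested). The smallest adjusted p of a member was 0.794. At an unadjusted p under 0.05 there were 0 members higher (background 2.69%) and 1 lower (background 3.28%), and DESeq2's Wald test gave 1 higher and 1 lower at that level and called 0. Of the 80 members 65 had a fold change above 0 and 15 below, and the median log2 fold change was 0.44, against 0.019 for all genes tested. The shift lay in members under 1000 nt: 53 of 53 were above 0, with a median of 0.52, while 12 of 27 longer members were above 0, with a median of -0.046.

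This shift rested on vehicle clone8_1. Without that library 45 of the 80 members were above 0 and 35 below, with a median of 0.020 (0.060 for short and -0.037 for long members). Within clone 4 alone the median was -0.053. By complex, the median with and without vehicle clone8_1 was 0.51 and 0.079 for complex I, 0.063 and 0.050 for complex II, 0.29 and 0.040 for complex III, 0.49 and 0.0046 for complex IV, and 0.34 and -0.070 for complex V. Without it edgeR's quasi-likelihood test again called 0 members, with 0 higher (background 2.98%) and 1 lower (background 3.57%) at an unadjusted p under 0.05. Leaving out vehicle clone4_1 instead left vehicle clone8_1 as 1 of only 2 vehicle libraries. The median then moved to 0.86, and 0 members were called.

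**Figure D4:**
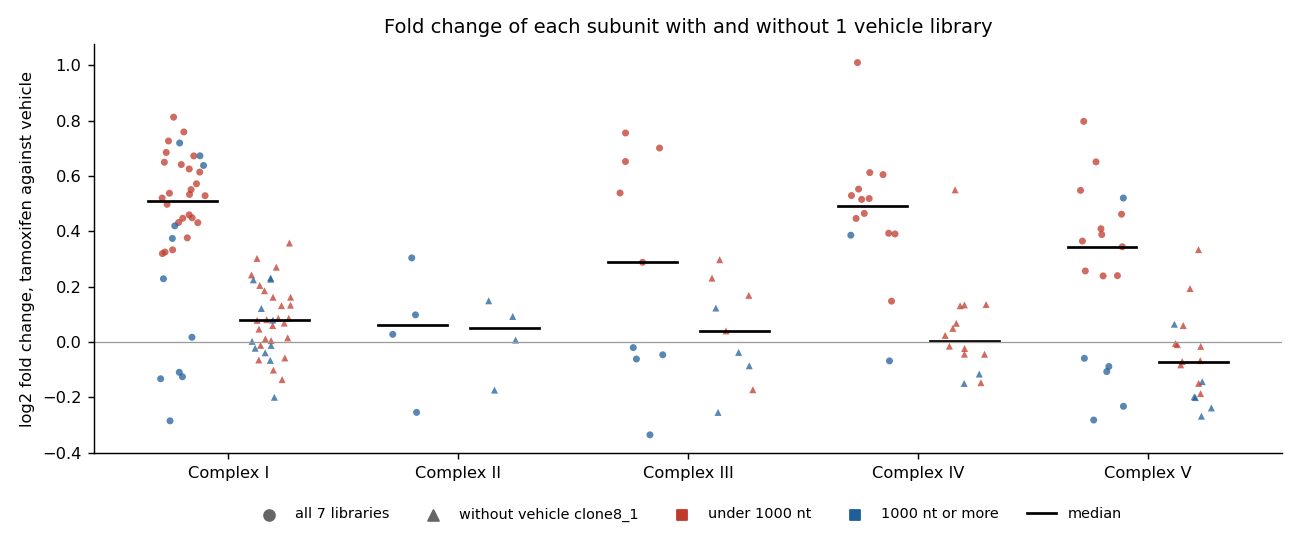
Log2 fold change of each member (tamoxifen against vehicle, edgeR), by complex, from all 7 libraries (circles) and without vehicle clone8_1 (triangles), with red for members under 1000 nt, blue for longer ones and black bars at the medians. With all libraries the red circles lie above 0, and without vehicle clone8_1 both colours scatter around 0.

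The member at the smallest unadjusted p was Uqcrc2, the complex III core protein on chromosome 7 (120635176 to 120659524, plus strand). It had 376, 351 and 433 CPM in vehicle clone4_1, clone4_2 and clone8_1, and 307, 289, 295 and 334 CPM in the tamoxifen libraries. The groups did not overlap, with means of 387 ± 42.4 CPM (SD, n = 3) and 306 ± 19.9 CPM (SD, n = 4). The log2 fold change of -0.34 ± 0.15 (SE) did not pass (edgeR adjusted p = 0.794, unadjusted 0.0475). Without vehicle clone8_1 it was -0.25 ± 0.13 (SE; edgeR adjusted p = 0.774, unadjusted 0.0748). Atp5b, the catalytic subunit of the ATP synthase, had 2079, 2239 and 2399 CPM in the vehicle and 1836, 1792, 1771 and 1969 CPM in the tamoxifen libraries, again without overlap. Its log2 fold change was -0.28 ± 0.13 (SE; edgeR adjusted p = 0.794, unadjusted 0.0581). Without vehicle clone8_1, where it was the single member at an unadjusted p under 0.05, it was -0.24 ± 0.10 (SE; edgeR adjusted p = 0.751, unadjusted 0.0450).

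Atp5a1, the alpha subunit that pairs with Atp5b in the F1 head, likewise did not overlap. Vehicle libraries averaged 1530 ± 79.6 CPM (SD, n = 3) and tamoxifen libraries 1302 ± 60.0 CPM (SD, n = 4), which gives a fold change of -0.23 ± 0.13 on the log2 scale (SE; edgeR adjusted p = 0.794). Without vehicle clone8_1 all 5 F1 genes had a fold change below 0, with a median of -0.15, and none was called. In that fit 13 of the 17 complex V members were below 0. With all 7 libraries the F1 genes Atp5d (0.24) and Atp5e (0.34) were above 0. The short members Ndufa12 and Cox7a1 completed the 5 smallest p-values. Ndufa12, an accessory subunit of complex I, had 171, 161 and 41.6 CPM in the vehicle and 190, 181, 258 and 196 CPM in the tamoxifen libraries. Its log2 fold change was 0.73 ± 0.40 (SE) with and 0.30 ± 0.17 without vehicle clone8_1. Cox7a1 had 8.68, 6.82 and 1.54 CPM and then 8.31, 10.4, 15.1 and 11.9 CPM, with a log2 fold change of 1.01 ± 0.50 (SE) in all libraries and 0.55 ± 0.32 without vehicle clone8_1. Neither was called in either fit. In all, 3 members were higher without overlap between groups (Ndufa12, Ndufc1 and Atp5j; background 3.71%) and 3 were lower (Uqcrc2, Atp5a1 and Atp5b; background 4.74%), shares near the background.

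The interaction of clone and condition sets the change with tamoxifen in clone 8 against that in clone 4. Clone 8 had a single vehicle library, vehicle clone8_1, so the term rests on the low values described above, could not be fitted without them, and does not show a difference between clones. In edgeR's quasi-likelihood test 53 of 80 members were called, all with the larger change in clone 8, against 3.14% of all genes tested called in that direction. They were 48 of the 53 short members and 5 of the 27 long ones (Ndufa13, Ndufb8, Ndufs4, Cox7b and Atp5g1). By complex the count was 27 of 36 for complex I, 0 of 4 for complex II, 5 of 9 for complex III, 11 of 14 for complex IV and 10 of 17 for complex V. The median interaction log2 fold change was 2.30, against 0.10 for all genes tested. The largest among members named for their deviation was that of Atp5mpl, at 3.26 ± 0.36 (SE; adjusted p = 0.00369). Clone and library cannot be told apart. The count fell to 19 with offsets for transcript length and to 7 without tamoxifen clone4_2, with all called members still larger in clone 8.

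Apart from vehicle clone8_1, the members varied little between pools. Over the 6 other libraries the median coefficient of variation of CPM was 14.4% for the 80 members, 15.5% for short and 10.1% for long ones, against 29.0% for all genes tested. Other protein-coding genes with a mean of at least 50 CPM had a median of 14.2% (13.8% for short and 14.3% for long ones). The members were thus close to that set. The minimum was applied to the other genes only, and some members lay below it, such as Cox7b2 at a mean of 0.44 CPM. Sdha, the flavoprotein of complex II, illustrates the size of this spread, with 330.2, 322 and 388 CPM in the vehicle libraries and 285, 331, 241 and 306 CPM in the tamoxifen libraries. Its tamoxifen values reached from below to inside the vehicle range.

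The partners of these subunits were read from lists of pathway genes. Of the 13 mitochondrially encoded subunits, 7 passed the filter, 4 were at 0 counts in every library and mt-Co2 and mt-Atp6 had at most 1 count in any. These are genes that all cells use, and a listing at 0 here says nothing of their expression. Together the 13 held 1.38% to 1.57% of counts in the vehicle and 1.23% to 2.34% in the tamoxifen libraries, and the median deviation of the 7 in vehicle clone8_1 was 0. There mt-Nd1 (957 nt) and mt-Nd2 (1038 nt) lay at -0.66 and -0.64, their lowest values of the 7 libraries, and mt-Nd6 (519 nt) lay at 0. All 7 had a fold change above 0, with a median of 0.28 (0.37 without vehicle clone8_1), and 0 were called. At an unadjusted p under 0.05 in edgeR's test, 2 of the 7 were higher (background 2.69%) and 0 lower. The smallest p was that of mt-Nd6, with 176, 206 and 209 CPM in vehicle and 392, 316, 733 and 198 CPM in tamoxifen libraries, so the groups overlapped through tamoxifen clone8_2 (log2 fold change 1.06 ± 0.37 SE; edgeR adjusted p = 0.794, unadjusted 0.0168).

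Assembly factors help to build the complexes. Of 45 that passed, 13 lay more than 1 log2 unit down in vehicle clone8_1 (background 19.5%), with a median deviation of -0.42. For tamoxifen 28 were above 0 and 17 below, with a median of 0.13 (0.050 without vehicle clone8_1), 0 were called, and 9 were called for the interaction, all larger in clone 8 (background 3.14%). Without overlap between groups, 3 were higher (Ndufaf3, Sdhaf4 and Coa3; background 3.71%) and 2 lower (Acad9 and Taco1; background 4.74%). The smallest p was that of Acad9, a complex I assembly factor, at 231, 238 and 265 CPM in vehicle and 181, 181, 101 and 182 CPM in tamoxifen libraries (log2 fold change -0.60 ± 0.22 SE; edgeR adjusted p = 0.794, unadjusted 0.0192). Of 14 transcriptional regulators of respiratory genes that passed, 4 were above 0 and 10 below, with a median of -0.16 (-0.059 without vehicle clone8_1) and a median deviation of 0.22 in vehicle clone8_1. Cytochrome c and mitochondrial carriers (8 genes) had 2 above 0 and 6 below, with a median of -0.15 (-0.037 without vehicle clone8_1). Without overlap between groups, 2 of these 8 were lower (background 4.74%) and 0 higher (background 3.71%). Of the 14 regulators, 0 were without overlap. In both lists 0 genes were called for condition or interaction, and 0 had an unadjusted p under 0.05 for condition.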

How the data were processed

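RNA of pooled inner cell masses was sequenced in 7 libraries. The authors deposited raw counts per Ensembl gene, not normalised, in a table with 1 column per library. Per the submitters' processing notes, bcl2fastq 2.19.1 and STAR 2.5.3a were used with mm10. The counting program, annotation, strand setting and duplicate handling are not given in the sources used here.

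Of 52636 genes, 52489 matched GENCODE M21 (GRCm38) by ID, the source of symbols, coordinates and transcript lengths. The test was edgeR's (version 4.0.16, R 4.3.3) quasi-likelihood test, with TMM factors, its expression filter by group and condition alone in the model (a separate model had clone and the interaction), with Benjamini-Hochberg adjustment over all genes and a call at an adjusted p under 0.05. DESeq2 1.42.0 was an alternative. Log2 CPM used a prior count of 2. Scripts were tested on simulated data. Near-identical copies were searched with blastn 2.17.0.

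Members named with values were, per complex, the 2 highest and the lowest per length, the lowest and highest in vehicle clone8_1, the 5 smallest p for condition, isoforms, and those not passing the filter. Ndufa13, Ndufb8, Ndufs4, Ndufv2, Ndufs1, Ndufs7, Ndufc1, Uqcrfs1, Cyc1, Uqcr11, Atp5c1, Atp5d, Atp5e and Atp5j, and the assembly factors Ndufaf3, Sdhaf4, Coa3 and Taco1, were named after their values were seen. The members and lists were chosen with earlier results of these data known. Other settings were scaling, filter, length offsets, length definitions, each library left out, and a replicate block. Libraries of the 2 conditions with the same number did not deviate together (r = 0.0078, 0.021 and -0.068 over 16248 genes), so the numbers were not taken as pairs.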

Additional observations from a re-analysis of the deposited data

Results flagged for a closer look

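Within the 4 tamoxifen libraries, clone8_1 lay apart from the other 3 for 4 named members, by a gap large against the group's range. Chance gives such a gap in about 1 of 20 groups. The check was made on every named member that passed the filter, the complexes, the length gap and the lists, so some such gaps come by chance. Members moved together within this library, so the 4 are not separate results. How often such a gap occurs over all genes was not counted. The values were 25.8 CPM for Ndufb2, 259.5 CPM for Ndufv1, 842 CPM for Uqcr10 and 451 CPM for Uqcrb. All 4 were the highest of their group. The summed level of the regulators of respiratory genes was the lowest there, at 752 CPM.

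In edgeR's quasi-likelihood test, 53 of 80 members passed for the clone by condition interaction. The clone 8 vehicle arm is 1 library, so this does not show a difference between clones. Among the members named for their deviation, the interaction log2 fold change was 3.26 for Atp5mpl, 3.05 for Ndufb4, 3.03 for Cox7a2 and 2.99 for Uqcrb. All 4 rest on vehicle clone8_1, the single vehicle library of clone 8.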

How the results depend on the processing

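The count of members called for tamoxifen against vehicle was 0 in the 16 other settings. The median log2 fold change of the members, 0.44, ranged from 0.015 (81 members tested, without vehicle clone8_1) to 0.86 (without vehicle clone4_1) when 1 library was left out. The ranges by complex were 0.079 to 0.90 (I), -0.033 to 0.15 (II), 0.040 to 0.82 (III), -0.015 to 1.00 (IV) and -0.070 to 0.67 (V). With transcript length offsets the median was 0.24, with 0.31, 0.037 and 0.12 for complexes I, III and V. With clone 4 only it was -0.053 (complexes I, III, IV and V: -0.015, -0.027, -0.096 and -0.14). Without both libraries numbered clone8_1 it was -0.037 (-0.015, -0.020, -0.073 and -0.15). With the replicate block, which leaves out tamoxifen clone8_2, it was 0.72 (0.80, 0.55, 0.84 and 0.59) and 0 members were called.

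The interaction count of 53 fell to 19 with length offsets and ranged from 7 (without tamoxifen clone4_2) to 55 when 1 library was left out. It was 20 without tamoxifen clone4_1 and 44 to 56 in the other 8 settings. The cause was not tested. The length gap of vehicle clone8_1, -2.32, was -1.33 by longest transcript and -2.15 with a boundary at 800 nt, and -2.41 to -2.27 otherwise, including coding length and shortest transcript, chosen after seeing the data. Of the 10 highest members per length, 9 or 10 remained. With 1 vehicle library in clone 8, no setting separates clone from library.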
